A study of Mus musculus with 57 samples.

Results

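The 9 genes described here carry ammonia into urea in the liver, or supply ammonia and nitrogen to that route. They were the rows of the deposited count table whose Ensembl IDs map to the symbols Cps1, Otc, Ass1, Asl, Nags, Slc25a15, Slc25a13, Gls2 and Glud1, and all 9 were found among the 54307 genes of the table. The rule names symbols and uses no measured value, although it was drawn up with earlier results of these data known. The table holds 57 livers of wild-type male C57BL/6JJcl mice, 1 liver per mouse as the sample titles name them. All mice were 6 weeks old, were acclimatised for 1 week, were fasted for 12 h, received 1 toxicant or a vehicle, and were killed 24 h later. By gavage, 4 mice received alpha-naphthyl isothiocyanate (ANIT), 6 acetaminophen (APAP), 7 4,4'-methylene dianiline (MDA) and 5 thioacetamide (TAA), beside 13 vehicle mice (Ctrl, 0.5% methylcellulose). By intraperitoneal injection, 7 mice received carbon tetrachloride (CCl4) and 4 galactosamine (GAL), beside 2 mice given 0.9% saline (CIP). By tail vein, 7 mice received concanavalin A (ConA), a plant lectin that activates T cells, beside 2 mice given 0.9% saline (CIV). The labels name corn oil as a further vehicle without saying for which compound, and no vehicle group received it, so a compound given in corn oil and its vehicle cannot be told apart. The doses of the compounds are not given in the sources used here.

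In the urea cycle, mitochondrial ammonia and bicarbonate are joined to carbamoyl phosphate by Cps1, which works only with N-acetylglutamate, the product of Nags. Otc transfers the carbamoyl group to ornithine and gives citrulline, which leaves the mitochondrion through the ornithine carrier Slc25a15. In the cytosol Ass1 joins citrulline with aspartate, brought out by the carrier Slc25a13 (citrin), and Asl splits the product into arginine and fumarate. Arginine then gives urea, and ornithine returns to the cycle. Gls2, the liver form of glutaminase, and Glud1, glutamate dehydrogenase, release ammonia from glutamine and glutamate. The cycle enzymes and Gls2 are known to be most abundant in periportal hepatocytes, around the portal vein, while the ammonia scavenger Glul, glutamine synthetase, marks the pericentral cells at the other end of the lobule.

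Levels are given in CPM, the estimated counts divided by the library total after TMM adjustment of that total. The CPM values of different libraries therefore do not add up to the same total. The deposited values look corrected for transcript length, so levels of different genes can be set side by side. In the 13 gavage vehicle livers, Ass1 was the highest of the genes at 3292 ± 1151 CPM (SD, n = 13). Cps1 followed at 1047 ± 246 CPM and Asl at 948 ± 288 CPM (each SD, n = 13), and these neighbours lay within 1 SD of each other. Glud1 stood at 355 ± 50.8 CPM and Gls2 at 266 ± 47.4 CPM. Otc reached 106 ± 29.1 CPM and Slc25a15 100.2 ± 16.4 CPM, a difference within their spread, above Nags at 61.1 ± 9.55 CPM and Slc25a13 at 57.1 ± 8.12 CPM, which also overlapped. The 9 genes held 0.459% to 0.702% of all estimated counts in these livers, and 0.111% to 0.20% in the 4 GAL livers. The lowest member value in any library was 61 rounded estimated counts, so every member passed the filter on low values in every comparison. The plot of all members by mouse shows these levels with those of the toxicant groups.

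**Figure D1:**
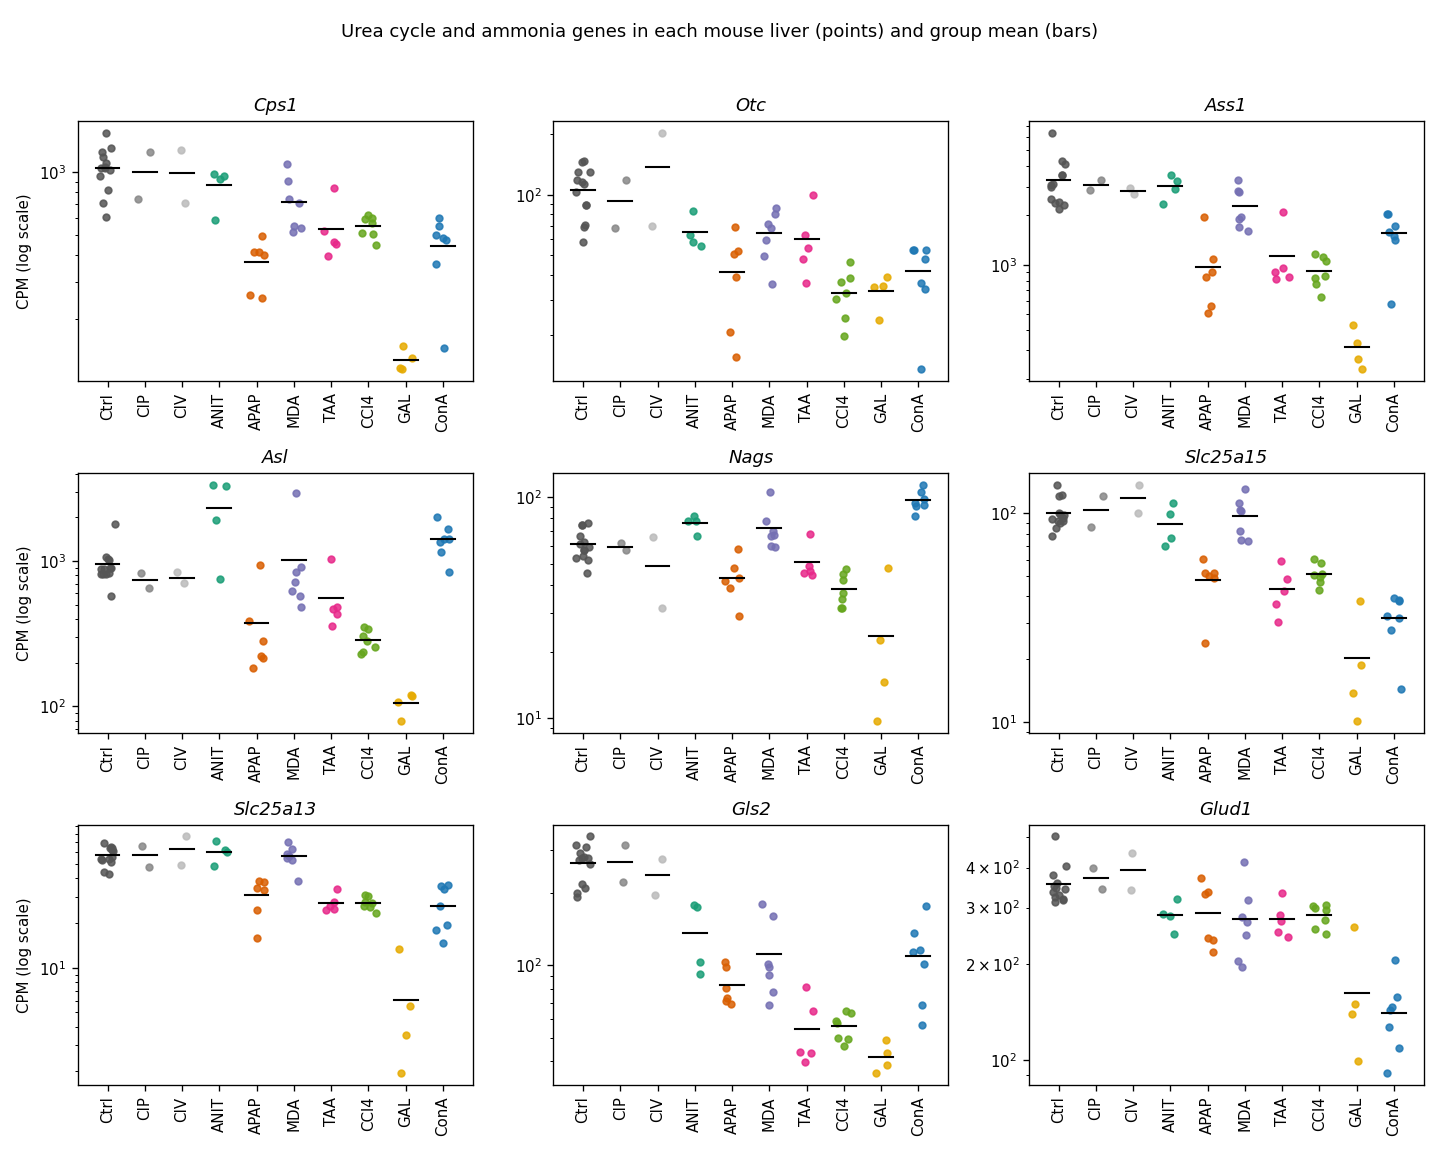
CPM on a log scale (vertical axis) of the 9 genes in each of the 57 livers (points), by group (horizontal axis), with the group mean as a bar. All 4 GAL livers lie below every vehicle liver for Cps1, Ass1 and Asl, while 3 of 4 ANIT livers lie above every vehicle liver for Asl.

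RefSeq promoter windows, 250 bases before to 50 bases after the start site, were on hand for 6 of the 9 genes (Otc, Ass1, Nags, Slc25a13 and Glud1 with 1 window each and Slc25a15 with 2). Cps1, Asl and Gls2 had no entry. The windows of 3 genes are printed because they stand for the different patterns below, Otc lower with every toxicant, Ass1 the most abundant enzyme, and Nags higher with ConA. Capitals mark GGGCGG or its reverse complement, the GC box. The windows are in build GRCm38.p6, Otc at chrX:10252055-10252354, Ass1 at chr2:31470020-31470319 and Nags at chr11:102145263-102145562, all on the plus strand, and each spans the upstream region and the first transcribed bases.
Otc: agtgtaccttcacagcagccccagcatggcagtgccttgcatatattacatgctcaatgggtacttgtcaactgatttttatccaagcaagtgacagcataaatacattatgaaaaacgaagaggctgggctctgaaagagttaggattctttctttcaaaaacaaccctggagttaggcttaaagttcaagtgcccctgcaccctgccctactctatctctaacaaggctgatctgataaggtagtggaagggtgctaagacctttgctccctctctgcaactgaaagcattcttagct
Ass1: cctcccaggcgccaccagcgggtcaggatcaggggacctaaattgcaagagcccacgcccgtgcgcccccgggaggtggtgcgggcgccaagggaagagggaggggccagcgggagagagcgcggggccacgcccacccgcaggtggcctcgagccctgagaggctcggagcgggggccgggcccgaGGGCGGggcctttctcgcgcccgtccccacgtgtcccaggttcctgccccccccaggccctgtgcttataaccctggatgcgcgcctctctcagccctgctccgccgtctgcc
Nags: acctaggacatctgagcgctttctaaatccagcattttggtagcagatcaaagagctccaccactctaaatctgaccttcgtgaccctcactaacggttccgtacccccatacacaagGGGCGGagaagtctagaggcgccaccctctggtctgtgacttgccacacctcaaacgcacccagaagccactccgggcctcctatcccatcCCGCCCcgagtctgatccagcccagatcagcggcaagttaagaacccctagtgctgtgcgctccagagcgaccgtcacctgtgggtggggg
In all, 7 motifs were searched on both strands, the TATA box TATAAA, the CCAAT box, the GC box GGGCGG, the core TGACGT of the cAMP response element, the C/EBP palindrome TTGCGCAA, the HNF4 site CAAAGTCCA and the glucocorticoid receptor motif AGAACA. The Ass1 window holds 1 GC box, which begins 63 bases before the start site. The Nags window holds 2, beginning 132 and 41 bases before it. The Otc window holds none of the motifs searched. Among 32851 RefSeq promoter windows of this length, 35.7% hold the GC box, 37.4% the CCAAT box, 19.0% the glucocorticoid receptor motif, 13.6% the TATA box, 7.51% the cAMP response core, 0.475% the HNF4 site and 0.183% the C/EBP palindrome. Both Slc25a15 windows and the Glud1 window hold GC boxes, and the Slc25a13 window holds a CCAAT beginning 22 bases before the start site. A match is a description of the letters only.

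Some libraries stand apart from the others of their label. Over 12371 genes, 36 of the 40 toxicant libraries correlated best with the mean of their own group. The library labelled ANIT 1 was closer to MDA (r = 0.972) than to the other ANIT libraries (r = 0.945), and the library labelled MDA 1 was closer to ANIT (r = 0.966) than to MDA (r = 0.949). The library labelled APAP 1 was closest to ConA (r = 0.918, against 0.882 with APAP), and APAP 6 was as close to Ctrl as to APAP (r = 0.956 for each). The labels were kept. Without APAP 6, 8 genes of the 9 were called for APAP against Ctrl, as with it. The fits that left out 1 APAP library called 27.2% to 32.4% of all genes. Library totals ran from 13826343 to 35075809 estimated counts (median 21532116). The kidney and gut markers Umod, Slc34a1 and Cdx2 summed to at most 0.385 CPM in any liver. A set of 7 unzoned hepatocyte markers summed to a median of 98710 CPM in Ctrl, 35820 CPM in CCl4 and 39690 CPM in GAL, whose ranges (31260 to 42460 CPM and 39020 to 46970 CPM) lay below all vehicle livers. In bulk tissue, fewer hepatocytes and less RNA of a gene per hepatocyte cannot be told apart, for every result below.

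Counts of called genes frame the changes. A gene was called when edgeR's quasi-likelihood test gave a Benjamini-Hochberg adjusted p under 0.05 over all genes tested. Against the vehicle of the same route, CCl4 lowered all 9 genes, where 33.5% of all genes were called in either direction and 15.6% were lower. GAL lowered 8 of 9 (28.5% called, 15.7% lower). APAP lowered 8 of 9 (31.8% called, 14.6% lower) and TAA 8 of 9 (50.5% called, 24.0% lower and 26.4% higher), none of them higher. ConA was mixed, with 5 genes lower and 2 higher (34.2% called, 17.3% lower and 16.8% higher). ANIT had 3 lower and 1 higher (28.2% called, 14.2% lower and 14.0% higher), and MDA 4 lower and none higher (33.8% called, 16.4% lower and 17.4% higher). The median log2 change of the 9 genes was -2.71 with GAL, -1.31 with APAP, -1.10 with ConA, -1.03 with CCl4, -0.91 with TAA, -0.36 with MDA and -0.17 with ANIT, beside medians of all tested genes between -0.01 (ANIT) and 0.10 (CCl4). Between vehicles, none of the 9 genes was called for CIP against Ctrl (0.0131% of genes called) or CIV against Ctrl (0.0263% called, 0.0197% higher and 0.00658% lower) by edgeR's quasi-likelihood test, and none had an unadjusted p under 0.05.

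Against all 17 vehicle livers together, which share mice with the route comparisons, the counts were 9 of 9 lower for CCl4 (53.4% of genes called, 27.2% lower and 26.2% higher) and for GAL (52.5% called, 27.5% lower and 25.1% higher). They were 9 lower for APAP (33.4%), 8 lower for TAA (49.7%, 25.2% higher), and 7 lower and 2 higher for ConA (68.0% called, 33.7% lower and 34.3% higher). MDA had 5 lower (34.2%), and ANIT 3 lower and 1 higher (28.0%). The genes added by the larger control group were Glud1 with APAP, Ass1 with MDA, Nags with GAL, and Cps1 and Ass1 with ConA.

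The libraries labelled ANIT 1, APAP 1 and MDA 1 were each left out in turn. Without ANIT 1, 3 genes in place of 4 were called against Ctrl (27.4% of all genes called) and 3 in place of 4 against 17 vehicles (26.9%), and the lost gene was Glud1 (adjusted p = 0.0829 and 0.0548). The ANIT log2 changes against Ctrl were then -0.84 for Otc and for Gls2 (-0.84), both called, and -0.31 for Cps1, -0.17 for Ass1, 0.31 for Nags, -0.29 for Slc25a15 and 0.09 for Slc25a13, none of them called. Without APAP 1, 8 genes were called against Ctrl (29.1%), and 8 in place of 9 against 17 vehicles (29.0%), where Glud1 was lost (adjusted p = 0.114). The APAP log2 changes against Ctrl were then -1.50 for Cps1, -1.33 for Otc, -1.63 for Gls2, -0.90 for Slc25a15, -0.74 for Slc25a13 and -0.58 for Nags, all called. Without MDA 1, 5 genes in place of 4 were called against Ctrl (34.8%), with Ass1 added, and 5 against 17 vehicles (34.4%). The called MDA log2 changes against Ctrl included -0.66 for Cps1, -0.70 for Otc, -1.42 for Gls2 and -0.40 for Glud1, while Nags (0.27), Slc25a15 (0.01) and Slc25a13 (-0.08) were not called. Asl and Ass1 without these libraries are given with their levels.

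**Figure D2:**
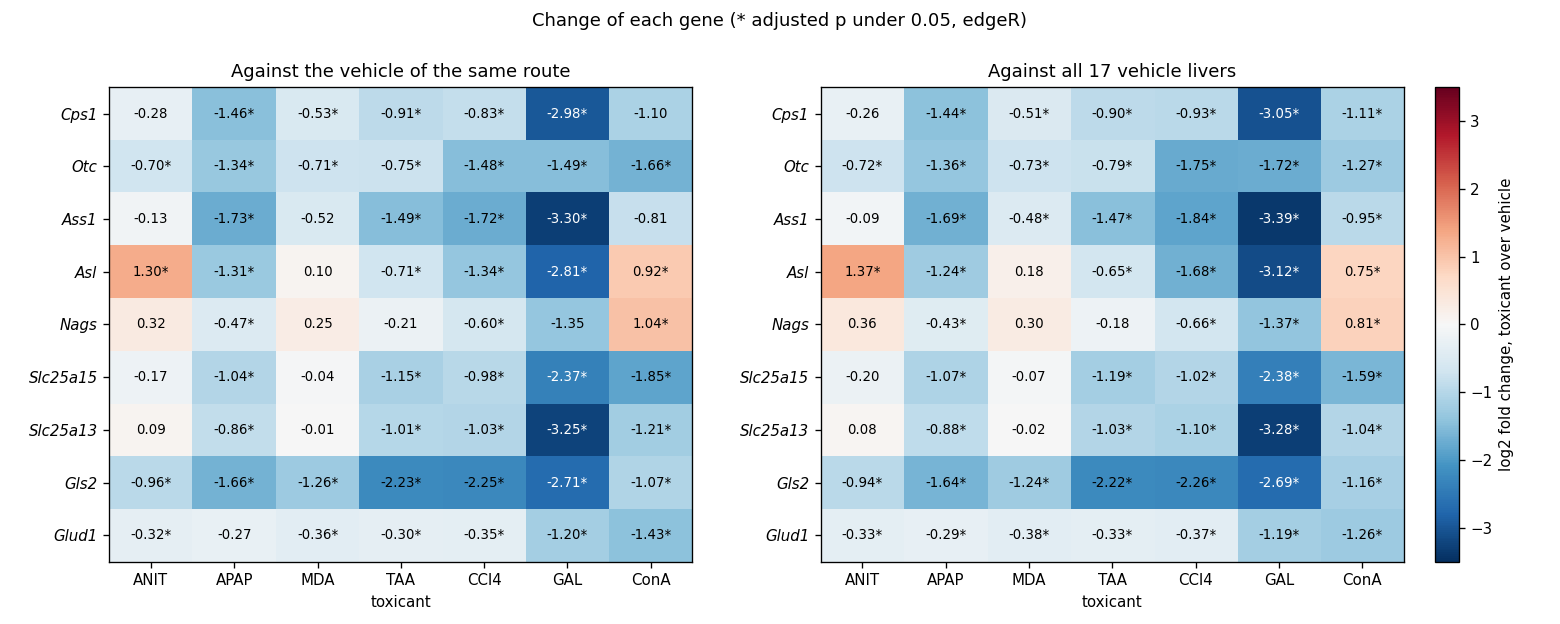
log2 fold change (colour and printed value) of the 9 genes (vertical) for the 7 toxicants (horizontal), against the vehicle of the same route (left) and all 17 vehicle livers (right); an asterisk marks an edgeR adjusted p under 0.05. Otc and Gls2 carry an asterisk in all 7 columns of both panels, and warm colours with an asterisk are limited to Asl with ANIT and ConA and to Nags with ConA.

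Cps1, the entry enzyme, fell with 5 of 7 toxicants. The 4 GAL livers held 130, 148, 115 and 116 CPM, against 1249 and 746 CPM in the 2 CIP livers, a log2 change of -2.98 ± 0.25 (SE, adjusted p = 0.00213), or 7.89-fold lower. All GAL livers lay below both controls. With APAP the 6 livers ran from 252 to 492.6 CPM (median 408), below all 13 Ctrl livers at 610 to 1538 CPM (median 1045), a log2 change of -1.46 ± 0.19 (adjusted p = 1.42e-05). TAA livers held 835, 398, 463, 452 and 525 CPM, 4 of 5 below every Ctrl liver (log2 change -0.91 ± 0.20, adjusted p = 0.00103). CCl4 livers lay between 447 and 624 CPM (log2 change -0.83 ± 0.18, adjusted p = 0.00733), and without CIP 7 the change was -0.38 (adjusted p = 0.16). MDA livers overlapped Ctrl at 518 to 1092 CPM (log2 change -0.53 ± 0.18, adjusted p = 0.0225), and without MDA 8 the adjusted p was 0.0538. ANIT livers at 927, 978, 587 and 955 CPM did not pass (log2 change -0.28 ± 0.20, adjusted p = 0.314). The 7 ConA livers at 145 to 604 CPM all lay below both CIV livers at 712 and 1269 CPM, with a change of -1.10 ± 0.40 that did not pass (adjusted p = 0.0559). Without ConA 12, the lowest, the change was -0.94 and passed (adjusted p = 0.0143).

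Nags, whose product switches Cps1 on, followed another order. All 7 ConA livers, at 82.1 to 114 CPM (median 93.8), lay above both CIV livers at 65.8 and 31.7 CPM and above every one of the 17 vehicle livers, a rise of 1.04 ± 0.29 (adjusted p = 0.0183). The value moved with the control left out. It was 0.59 (adjusted p = 0.096) without CIV 8 and 1.70 without CIV 7, while against all 17 vehicles it was 0.81 ± 0.11 (adjusted p = 7.33e-07), and 0.17 (adjusted p = 0.315) there when libraries were scaled by their totals. Nags fell with APAP (log2 change -0.47 ± 0.14, adjusted p = 0.0135) and with CCl4 (log2 change -0.60 ± 0.16, adjusted p = 0.0163), the latter with an adjusted p of 0.0713 without CIP 7 and 0.116 without CIP 8. The GAL livers held 47.6, 14.5, 9.70 and 22.6 CPM, against 57.6 and 61.9 CPM in CIP, and the change of -1.35 ± 0.57 did not pass (adjusted p = 0.118). Without GAL 2, the highest, it was -1.93 (adjusted p = 0.00827). ANIT (76.1 ± 6.67 CPM, SD, n = 4), MDA (72.5 ± 15.9, n = 7) and TAA (50.7 ± 9.93, n = 5) did not pass, with adjusted p-values of 0.0588, 0.107 and 0.196. Without TAA 1 the TAA change was -0.37 (adjusted p = 0.0187).

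Otc, the second mitochondrial enzyme, fell with all 7 toxicants, with log2 changes from -0.70 ± 0.22 with ANIT (adjusted p = 0.0256) to -1.66 ± 0.44 with ConA (adjusted p = 0.0152). ANIT livers held 83.2, 63.1, 55.9 and 58.1 CPM, all but 1 within the Ctrl range of 58.1 to 147 CPM. The other log2 changes were -0.71 with MDA, -0.75 with TAA, -1.34 with APAP, -1.48 with CCl4 and -1.49 with GAL. GAL and CCl4 livers, at 24.0 to 39.2 and 19.8 to 46.2 CPM, lay below every vehicle liver, as did the ConA livers at 13.6 to 53.3 CPM. For ANIT the adjusted p was 0.0674, 0.0977 and 0.0765 without ANIT 2, 3 and 4. Without CIP 7 the change was -1.0 for CCl4 (adjusted p = 0.0795) and -0.97 for GAL (adjusted p = 0.0979). CIV 7 and CIV 8 held 70.3 and 203 CPM, and without CIV 8 the ConA change was -0.73 (adjusted p = 0.342). Against all 17 vehicles the ConA change was -1.27 ± 0.25 (adjusted p = 6.72e-05).

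The carrier Slc25a15, which exchanges ornithine and citrulline across the inner mitochondrial membrane, fell with 5 toxicants and was not called with ANIT (-0.17 ± 0.14, adjusted p = 0.41) and MDA (-0.04 ± 0.12, adjusted p = 0.822). ConA livers ran from 14.4 to 39.2 CPM (median 32.3), against 100 and 137 CPM in CIV, a log2 change of -1.85 ± 0.29 (adjusted p = 0.00101). The GAL log2 change was -2.37 ± 0.50 (adjusted p = 0.0169), with livers at 38.2, 13.8, 10.1 and 18.7 CPM, and its adjusted p was 0.052, 0.10 and 0.0638 without GAL 8, CIP 7 and CIP 8. The log2 changes with TAA, APAP and CCl4 were -1.15, -1.04 and -0.98. All livers of these 5 groups lay below every vehicle liver, among which the lowest held 77.5 CPM.

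Slc25a13, the aspartate carrier that feeds Ass1, changed in the same 5 groups. GAL livers held 13.4, 3.52, 1.95 and 5.56 CPM, against 66.6 and 47.9 CPM in CIP, a log2 change of -3.25 ± 0.68 (adjusted p = 0.0166). The adjusted p was 0.0517, 0.0881 and 0.0656 without GAL 8, CIP 7 and CIP 8, and the change -3.96 without GAL 2. With ConA the log2 change was -1.21 ± 0.33 (adjusted p = 0.0164), and -0.89 without CIV 8 (adjusted p = 0.163). With CCl4, TAA and APAP it was -1.03, -1.01 and -0.86. With ANIT (0.09) and MDA (-0.01) it was not called, at 60.6 ± 9.20 CPM (SD, n = 4) and 56.5 ± 9.86 CPM (n = 7), against 57.1 ± 8.12 CPM in Ctrl. The homologous carrier Slc25a12 passed the test with none of the 7 toxicants against the route vehicle (log2 change -1.51 to 0.42), and with ConA against all 17 vehicles (-1.06 ± 0.44, adjusted p = 0.0372).

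Ass1, which joins citrulline and aspartate, fell with 4 toxicants. GAL livers at 429, 333, 264 and 229 CPM stood against 3312 and 2846 CPM in CIP, a log2 change of -3.30 ± 0.26 (adjusted p = 0.00208), 9.85-fold lower. APAP livers ran from 504 to 1948 CPM (median 872), all below the lowest Ctrl liver at 2202 CPM, a log2 change of -1.73 ± 0.29 (adjusted p = 0.000164). Without the library labelled APAP 1, the highest, the log2 change was -2.07 ± 0.27. CCl4 livers ran from 637 to 1158 CPM (median 848), a log2 change of -1.72 ± 0.19 (adjusted p = 0.00014), and TAA livers at 2103, 897, 813, 838 and 957 CPM gave a log2 change of -1.49 ± 0.28 (adjusted p = 0.000219). The ANIT change was -0.13 ± 0.24 (adjusted p = 0.729), with the livers at 3266, 3540, 2334 and 2884 CPM inside the Ctrl range. The Ctrl livers with the same numbers, 1 to 4, held 6397, 4270, 3531 and 4097 CPM, and with the number range (1 to 4 against higher) as a covariate the change was called (-0.61, adjusted p = 0.0404). For MDA it was -0.52 ± 0.21 (adjusted p = 0.058), with an adjusted p of 0.0498 without the library labelled MDA 1 and 0.0275 without MDA 2. It was called with the mouse number range (1 to 4 against higher) as a covariate (-0.69, adjusted p = 0.000716) and among mice numbered above 4 alone (-0.63, adjusted p = 0.0149). ConA livers at 573 to 2039 CPM all lay below both CIV livers at 2935 and 2715 CPM, but the change of -0.81 ± 0.36 did not pass (adjusted p = 0.105). It passed without ConA 12 (-0.67, adjusted p = 0.0291) and against all 17 vehicles (-0.95 ± 0.21, adjusted p = 0.000299).

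Asl, the next step after Ass1, moved in both directions. The ANIT libraries held 758 CPM in the library labelled ANIT 1 and 3265, 1910 and 3360 CPM in the other 3, which all lay above every Ctrl liver (571 to 1813 CPM, median 889). The rise was 1.30 ± 0.27 (adjusted p = 0.00183) with ANIT 1 and 1.59 ± 0.22 (adjusted p = 6.25e-05), or 3.01-fold, without it. The call was lost with the mouse number in the labels (1 to 4 against higher) as a covariate (0.91, adjusted p = 0.0613) and among mice numbered 1 to 4 alone (0.90, adjusted p = 0.193). The library labelled MDA 1 held 2944 CPM, and the other 6 MDA libraries 482 to 907 CPM. The MDA change was 0.10 ± 0.29 (adjusted p = 0.821) with MDA 1 and -0.46 ± 0.18 (adjusted p = 0.061) without it. The sign also turned with that library kept, to -0.14 with limma-trend. ConA livers ran from 845 to 2014 CPM (median 1420), all above both CIV livers at 837 and 704 CPM, a rise of 0.92 ± 0.31 (adjusted p = 0.043). That call was lost without any 1 of ConA 2, 3, 4, 8 or 11, CIV 7 or CIV 8, with adjusted p-values of 0.0526 to 0.204. Against all 17 vehicles it was 0.75 ± 0.16 (adjusted p = 0.000224), and 0.10 (adjusted p = 0.47) there when libraries were scaled by their totals.

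Asl fell with the other 4 toxicants. GAL livers held 118, 120, 107 and 79.2 CPM, against 827 and 656 CPM in CIP, a log2 change of -2.81 ± 0.22 (adjusted p = 0.00208). CCl4 livers at 231 to 351 CPM (median 280) gave a log2 change of -1.34 ± 0.16 (adjusted p = 0.000265). The library labelled APAP 1 held 945 CPM and the other 5 APAP libraries 183 to 385 CPM, below every Ctrl liver. The APAP log2 change was -1.31 ± 0.31 (adjusted p = 0.00326) with that library and -1.86 ± 0.23 (adjusted p = 1.02e-05) without it. TAA livers held 1036 CPM in TAA 1 and 467, 355, 432 and 485 CPM in the other 4, a log2 change of -0.71 ± 0.25 (adjusted p = 0.0225), with adjusted p-values of 0.0589 to 0.0787 without TAA 3, 6, 7 or 8.

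Gls2, the glutaminase that feeds ammonia to Cps1, was the other gene lower with every toxicant. The GAL livers held 43.1, 49.1, 38.3 and 35.7 CPM, against 317 and 222 CPM in CIP, a log2 change of -2.71 ± 0.22 (adjusted p = 0.00208). CCl4 livers ran from 46.0 to 64.7 CPM (median 57.6), a log2 change of -2.25 ± 0.15 (adjusted p = 1.23e-05), and TAA livers held 81.3, 43.3, 39.4, 64.7 and 43.8 CPM, a log2 change of -2.23 ± 0.19 (adjusted p = 1.74e-08). APAP livers at 69.1 to 103 CPM (median 76.9) gave a log2 change of -1.66 ± 0.15 (adjusted p = 3.33e-07). MDA livers ran from 68.5 to 180 CPM (median 98.2), a log2 change of -1.26 ± 0.18 (adjusted p = 1.58e-05), and ANIT livers held 103, 178, 91.9 and 174 CPM, a log2 change of -0.96 ± 0.19 (adjusted p = 0.00129). In all 4 gavage groups every treated liver lay below every Ctrl liver, the lowest of which held 193 CPM. For ConA the log2 change was -1.07 ± 0.35 (adjusted p = 0.0392), with livers at 56.4 to 177 CPM (median 113) below CIV at 277 and 196 CPM. That call was lost without any 1 of ConA 2, 4, 5 or 11, CIV 7 or CIV 8 (adjusted p 0.0539 to 0.277), while against all 17 vehicles the log2 change was -1.16 ± 0.17 (adjusted p = 1.64e-06).

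Glud1, which frees ammonia from glutamate, showed the smallest called falls. The log2 changes were -0.32 with ANIT, -0.36 with MDA, -0.30 with TAA and -0.35 with CCl4, with adjusted p-values of 0.0432, 0.0326, 0.0322 and 0.0384. Each of these was lost without several single libraries (ANIT 1, 3 or 4, MDA 3, 4, 7, 8 or 12, TAA 3, 6, 7 or 8, and CCl4 5, 6, 8 or 10, CIP 7 or CIP 8), with adjusted p-values of 0.0829 to 0.148, 0.0537 to 0.0782, 0.0585 to 0.0963 and 0.0518 to 0.327. The APAP change was -0.27 ± 0.12 (adjusted p = 0.0935, and 0.0428 without APAP 2). ConA gave the largest log2 change at -1.43 ± 0.25 (adjusted p = 0.00198), with livers at 91.3 to 206 CPM (median 143), against 339 and 445 CPM in CIV. GAL livers at 261, 140, 99.3 and 150 CPM gave a log2 change of -1.2 ± 0.35 (adjusted p = 0.0459), lost without GAL 4, 7 or 8, CIP 7 or CIP 8 (adjusted p 0.0694 to 0.206).

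The ratio of Asl to Ass1 in the same liver, which needs no scaling between libraries, was read as a description. It was 0.238 to 0.352 in Ctrl, 0.231 and 0.250 in CIP and 0.259 and 0.285 in CIV. CCl4 livers at 0.264 to 0.374 and GAL livers at 0.276 to 0.406 all lay above both CIP livers and overlapped with Ctrl. APAP livers lay at 0.485 (the library labelled APAP 1), 0.246, 0.256, 0.259, 0.693 and 0.363, of which 3 lay above every Ctrl liver. The ratio was 0.764 to 1.47 in ConA, above every vehicle liver. Among ANIT libraries it was 0.232 in the library labelled ANIT 1 and 0.819 to 1.17 in the other 3, and among MDA libraries 1.06 in the library labelled MDA 1 and 0.253 to 0.427 in the other 6. TAA livers lay at 0.436 to 0.520, above all Ctrl livers. The plot of Asl against Ass1 by mouse shows these livers off the diagonal of the vehicles.

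**Figure D3:**
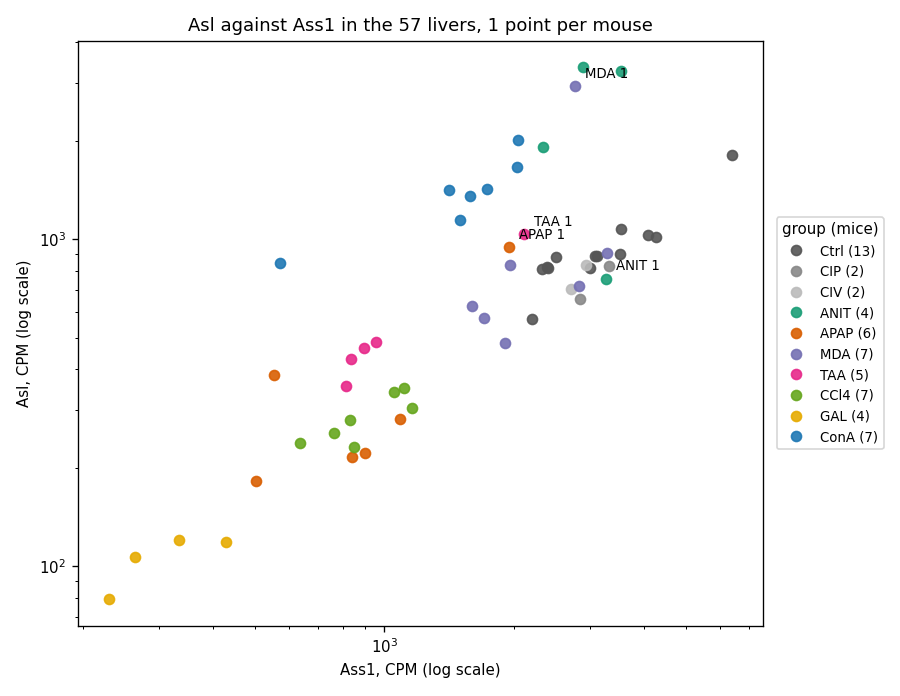
CPM of Asl (vertical) against Ass1 (horizontal) on log scales, 1 point per mouse, coloured by group. GAL livers sit at the low end of both axes; 3 ANIT livers and the library labelled MDA 1 lie above every vehicle liver in Asl, the ConA livers lie left of every vehicle liver in Ass1, and the libraries labelled ANIT 1, MDA 1, APAP 1 and TAA 1 are named.

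The gavage toxicants were compared with each other in 1 joint fit with 6 contrasts. ANIT stood above APAP in 6 of 9 genes (13.2% of all genes called, 5.64% higher) and above TAA in 6 (21.6%), and MDA above APAP in 5 (13.1%) and above TAA in 5 (24.3%), with none in the opposite direction. Without the libraries labelled ANIT 1, MDA 1 and APAP 1, these counts were 6 (18.5%), 5 (24.4%), 6 (14.1%) and 5 (28.0%), with Nags lost between ANIT and TAA (adjusted p = 0.0541) and Asl added between MDA and APAP (adjusted p = 0.00335). Asl was higher with ANIT than with APAP by 2.63 ± 0.54 (adjusted p = 0.00408), and by 3.46 ± 0.34 without the libraries labelled ANIT 1, MDA 1 and APAP 1. Between APAP and TAA none of the 9 passed by edgeR's quasi-likelihood test (5.98% of genes called), with 2 at an unadjusted p under 0.05. Gls2, at 0.60 ± 0.26 higher with APAP, had an adjusted p of 0.188. Without the 3 libraries, Asl alone passed there (-1.11 ± 0.29, adjusted p = 0.015, with 16.3% of genes called). Between ANIT and MDA no gene of the whole table passed (0.0% called), and Asl at 1.2 ± 0.51 (adjusted p = 0.551) was the member with an unadjusted p under 0.05. Without the 3 libraries, 4.59% of genes were called and Asl was the member among them, 4.18-fold higher with ANIT (2.06 ± 0.31, adjusted p = 0.00123).

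CCl4 and GAL, given by the same route, differed in 7 of 9 genes, all higher with CCl4, where 42.5% of all genes were called. Slc25a13 was higher by 2.13 ± 0.41 (adjusted p = 0.00144), Cps1 by 2.05 ± 0.12 (adjusted p = 3.82e-07), Ass1 by 1.48 ± 0.21 (adjusted p = 0.000164) and Asl by 1.37 ± 0.16 (adjusted p = 5.26e-05). Without GAL 2 the Slc25a13 difference was 2.82. Otc did not pass at -0.09 ± 0.22 (adjusted p = 0.755), nor did Nags at 0.65 ± 0.34 (adjusted p = 0.137). Gls2 was higher with CCl4 by 0.36 ± 0.13 (adjusted p = 0.0388), which was lost without GAL 2, 7 or 8 (adjusted p 0.0558 to 0.158). Markers of cell types also differed between these groups. With CCl4 relative to GAL, 2 of 7 hepatocyte markers were higher and 1 lower (median sums 35820 and 39690 CPM), 3 of 6 periportal markers higher and 1 lower (817 and 641 CPM), and 1 of 8 pericentral markers higher and 6 lower (734 and 2064 CPM). Lower with CCl4 were also 4 of 8 leukocyte markers (179 and 323 CPM) and 4 of 4 endothelial markers (61.3 and 96.3 CPM). So were 2 of 5 stellate markers (61.9 and 118 CPM) and 1 of 5 cholangiocyte markers (53.8 and 58.2 CPM), with none higher in these 4 lists. The part of the markers in the differences was not tested.

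Markers of cell zones and other cells moved with several of these groups. The 6 periportal markers (Hal, Sds, Cyp2f2, Hsd17b13, Pck1 and Aldh1b1) summed to 1975 to 3606 CPM in Ctrl, and to 2857 to 3310 CPM in ANIT, 1992 to 3292 CPM in MDA, 1222 to 2565 CPM in APAP, 969 to 1886 CPM in TAA, 673 to 962 CPM in CCl4, 631 to 873 CPM in GAL and 936 to 2289 CPM in ConA. All 6 were called lower with CCl4 and 5 of 6 with TAA and GAL, 3 each with APAP and ConA and 2 each with ANIT and MDA. With TAA, ConA, ANIT and MDA, 1 was called higher. In these comparisons 14.2% (ANIT) to 24.0% (TAA) of all genes were called lower and 12.8% (GAL) to 26.4% (TAA) higher, which holds for the other marker lists too. The 8 pericentral markers summed to a median of 4261 CPM in Ctrl, 682 CPM in APAP, 734 CPM in CCl4, 2061 CPM in MDA, 2064 CPM in GAL, 2599 CPM in TAA, 4480 CPM in ANIT and 4319 CPM in ConA. Of these 8, 7 were lower with APAP, 6 each with MDA, TAA and CCl4, 4 with GAL, and 3 each with ANIT and ConA. None of them was called higher. The 8 leukocyte markers summed to a median of 265 CPM in Ctrl, 136 CPM in ANIT, 145 CPM in MDA, 179 CPM in CCl4, 234 CPM in APAP, 257 CPM in ConA, 323 CPM in GAL and 409 CPM in TAA. With TAA 4 of them were higher and 2 lower, and with ANIT 4 were lower and none higher. The counts higher and lower were 3 and 1 with APAP, 1 and 3 with MDA, 2 and 1 with CCl4, and 2 and 3 with ConA. With GAL 2 were higher and none lower. With MDA and ConA 7 of the 8 were tested. Cholangiocyte markers summed to medians of 23.2 CPM (ANIT) to 137 CPM (ConA), beside 42.1 CPM in Ctrl and 44.5 CPM in CIV, and stellate markers to 55.5 CPM (MDA) to 170 CPM (ConA), beside 57.4 CPM in Ctrl and 103 CPM in CIV. Endothelial markers summed to medians of 40.6 CPM (ConA), 46.7 CPM (TAA) and 61.3 CPM (CCl4) to 98.6 CPM (ANIT), beside 102 CPM in Ctrl. Mitochondrial transcripts held 5.11% and 9.24% of estimated counts in CIP, below all CCl4 livers (9.43% to 14.5%) and all GAL livers (9.54% to 20.1%). They held 7.48% to 21.8% in Ctrl, 14.6% to 39.3% in ConA, and 6.79% in CIV 7 against 25.4% in CIV 8. CIV 8 is also the control without which 2 genes were called for ConA. The part of these shifts in the results above was not tested.

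When libraries were scaled by their totals instead of TMM, the median log2 change of all genes against the route vehicle shifted by 0.76 with GAL, 0.43 with CCl4, 0.15 with APAP, -0.22 with ANIT, -0.58 with ConA, -0.05 with MDA and 0.01 with TAA. On that scale, with GAL, Otc (-0.76, adjusted p = 0.0974), Slc25a15 (-1.58, adjusted p = 0.0571) and Glud1 (-0.41, adjusted p = 0.452) did not pass. With CCl4, Cps1 (-0.42, adjusted p = 0.169), Nags (-0.17, adjusted p = 0.447) and Slc25a15 (-0.56, adjusted p = 0.0678) did not pass, and Glud1 turned to 0.07 (adjusted p = 0.741). With ConA, Asl (0.26, adjusted p = 0.514) and Nags (0.38, adjusted p = 0.466) did not pass, while Cps1 (-1.73) and Ass1 (-1.49) did. Cps1 with ANIT passed (-0.47, adjusted p = 0.04), and Ass1 with MDA (-0.57, adjusted p = 0.00237), while Nags with APAP (-0.34, adjusted p = 0.075) and Glud1 with TAA (-0.32, adjusted p = 0.0766) did not. The uncalled sign of Slc25a13 with ANIT (-0.12) also flipped. Against all 17 vehicles, Asl and Nags with ConA and Nags and Glud1 with APAP, CCl4 and GAL lost their calls on that scale, and Glud1 with CCl4 turned to 0.16. Between toxicants, where the median shifted by -0.38 (ANIT minus APAP) to 0.20 (APAP minus MDA), ANIT stood above APAP in 4 genes in place of 6 (15.8% of all genes called on that scale) and above TAA in 4 in place of 6 (18.3%), MDA above APAP in 4 in place of 5 (11.8%), and CCl4 above GAL in 5 in place of 7 (42.5%). The lost calls were Slc25a15 (0.44, adjusted p = 0.305) and Slc25a13 (0.53, adjusted p = 0.148) between ANIT and APAP, and Nags (0.34, adjusted p = 0.118) and Slc25a15 (0.74, adjusted p = 0.09) between ANIT and TAA. For APAP minus MDA, Slc25a15 (-0.72, adjusted p = 0.069) and Slc25a13 (-0.57, adjusted p = 0.0956) were lost and Asl (-1.33, adjusted p = 0.0408) was gained. For CCl4 minus GAL, Gls2 (0.13, adjusted p = 0.526) and Glud1 (0.49, adjusted p = 0.109) were lost.

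The vehicle livers themselves differed by the number in their labels. Ctrl mice numbered 1 to 4 held 4574 ± 1256 CPM of Ass1 (SD, n = 4), those numbered 7 to 12 held 3040 ± 359 CPM (n = 5) and those numbered 15 to 18 held 2327 ± 90.5 CPM (n = 4). Gls2 stood at 305, 284 and 205 CPM in these ranges, Asl at 1232, 876 and 755 CPM, and Cps1 at 1211, 1121 and 791 CPM. Otc stood at 121, 113 and 81.8 CPM. The first and last of these lay more than 1 SD apart (SD 24.3 and 32.3 CPM), with overlapping livers (89.1 to 147 and 58.1 to 129.5 CPM). Slc25a13 stood at 60.1, 58.7 and 52.2 CPM, within the SD of the last range (12.2 CPM). Slc25a15 (103, 99.3 and 98.1 CPM) and Nags (66.9, 55.4 and 62.5 CPM) showed no such decline, and Glud1 was highest in the last range (341, 335 and 394.5 CPM). Ctrl 1 alone held 6397 CPM of Ass1 and 1813 CPM of Asl, the most of the 13, and no fit left out that library alone. The labels do not say what the numbers stand for, and these ranges follow the gaps in the numbering. ANIT mice were numbered 1 to 4 only. Among mice numbered above 4 the fall of Asl was called with APAP and TAA, and the change of Nags with APAP was -0.40 (adjusted p = 0.076). In a fit of the difference between the ranges, 0 of 9 genes were called for APAP, MDA or TAA by edgeR's quasi-likelihood test, beside 0 of 13939, 0 of 13522 and 16 of 14360 genes in all, with lowest adjusted p-values of 0.714, 0.718 and 0.476, and 0, 1 and 0 genes at an unadjusted p under 0.05.

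**Figure D4:**
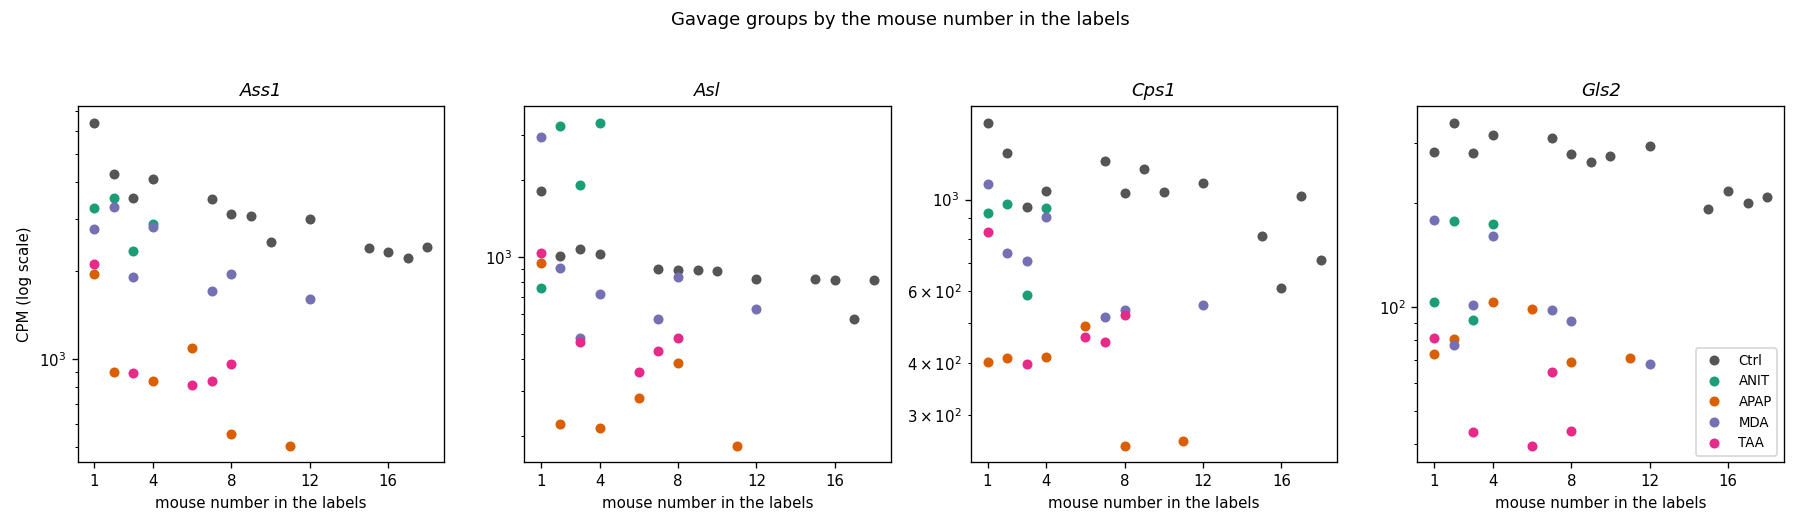
CPM on a log scale of Ass1, Asl, Cps1 and Gls2 against the mouse number in the labels for the 5 gavage groups, 1 point per mouse. Ctrl livers numbered 15 to 18 hold less Gls2 (193 to 218 CPM) than the Ctrl livers numbered 1 to 12 (263 to 343 CPM), and every treated liver lies below them all.

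Among 33 further genes of nitrogen handling, 28 to 30 were tested in each route comparison, and more were lower than higher in each. The counts lower and higher were 8 and 5 with ANIT (14.2% and 14.0% of all genes), 16 and 3 with APAP (14.6% and 17.3%), and 14 and 5 with MDA (16.4% and 17.4%). They were 20 and 6 with TAA (24.0% and 26.4%), 20 and 5 with CCl4 (15.6% and 18.0%), 18 and 1 with GAL (15.7% and 12.8%), and 12 and 4 with ConA (17.3% and 16.8%). The higher counts with TAA and ConA include Nos2, which passed the filter on low values in those 2 comparisons only. Pycr1 was tested in 4 and called higher in 1. Hal, Sds, Glul, Oat, Slc1a2 and Rhbg also stand among the zone markers. The genes were chosen with earlier results of these data known, so the direction is no independent evidence. A set of 6 genes was called with all 7 toxicants, so that a rule to name the 4 most often called met a tie and all are given. Car5a, the mitochondrial carbonic anhydrase that supplies bicarbonate to Cps1, was lower with each, with log2 changes from -1.63 ± 0.15 with MDA (adjusted p = 1.41e-07) to -4.06 ± 0.53 with GAL (adjusted p = 0.00404). Its mean was 72.0 CPM in Ctrl and 4.70 CPM in GAL. Prodh and Aldh4a1, which turn proline into glutamate, fell with log2 changes of -3.11 to -0.83 and -2.28 to -0.89, Amt of the glycine cleavage system with -2.44 to -0.76, and Nit2, an omega-amidase of glutamine breakdown, with -2.33 to -1.18. Odc1, which draws ornithine into polyamines, was the 1 that rose, by 0.53 ± 0.17 with ANIT (adjusted p = 0.0249) up to 3.91 ± 0.31 with ConA (adjusted p = 3.74e-05), from 24.8 CPM in CIV to 359 CPM.

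Other users of the same substrates split by toxicant. Oat, a pericentral enzyme that breaks ornithine down, fell with 5 toxicants, with log2 changes down to -3.29 ± 0.21 with CCl4 (adjusted p = 1.01e-05) and -2.90 ± 0.48 with APAP (adjusted p = 0.000145), but not with TAA or ConA (-0.37 for each, adjusted p = 0.0991 and 0.402). Glul fell with CCl4 (log2 change -4.37 ± 0.15, adjusted p = 9.51e-07), from 472 to 22.3 CPM, with MDA (-2.27 ± 0.46, adjusted p = 0.00064) and with TAA (-1.56 ± 0.24, adjusted p = 1.88e-05), and stood at 0.51 ± 0.42 with ConA (adjusted p = 0.376). Nos2, which competes for arginine, passed the filter on low values in 2 of the 7 route comparisons, those of the toxicant groups with the highest means, so these calls are given as levels. It stood at 46.9 to 92.7 CPM in ConA livers against 0.0328 and 0.0644 CPM in CIV, and at a mean of 0.843 CPM in TAA livers against 0.16 CPM in Ctrl, where the groups overlapped. Slc7a2, an arginine importer, rose with ConA from 88.4 to 252 CPM (1.57 ± 0.50, adjusted p = 0.0344). It fell with GAL (log2 change -2.91 ± 0.27, adjusted p = 0.00217), CCl4 (-1.58 ± 0.25, adjusted p = 0.00125) and TAA (-0.82 ± 0.28, adjusted p = 0.0184), and was not called with ANIT, APAP or MDA. Both were chosen after their values were seen. Among 9 regulators, the counts called over the 7 route comparisons were as follows. Klf15, a transcription factor of amino acid breakdown, was lower with all 7 (log2 change -3.29 to -0.78), and Cebpa, the liver C/EBP factor, with 6 (not ConA, 0.03, adjusted p = 0.963). The glucagon receptor Gcgr was lower with 5 and the bile acid receptor Nr1h4 with 4. Cebpb was higher with 3, Hnf4a higher with 2 and lower with 2, and Ppargc1a higher with 1 and lower with 2. The glucocorticoid receptor Nr3c1 and Tfeb were called with none. Klf15 and Cebpa were picked out for their values after these were seen.

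**Figure D5:**
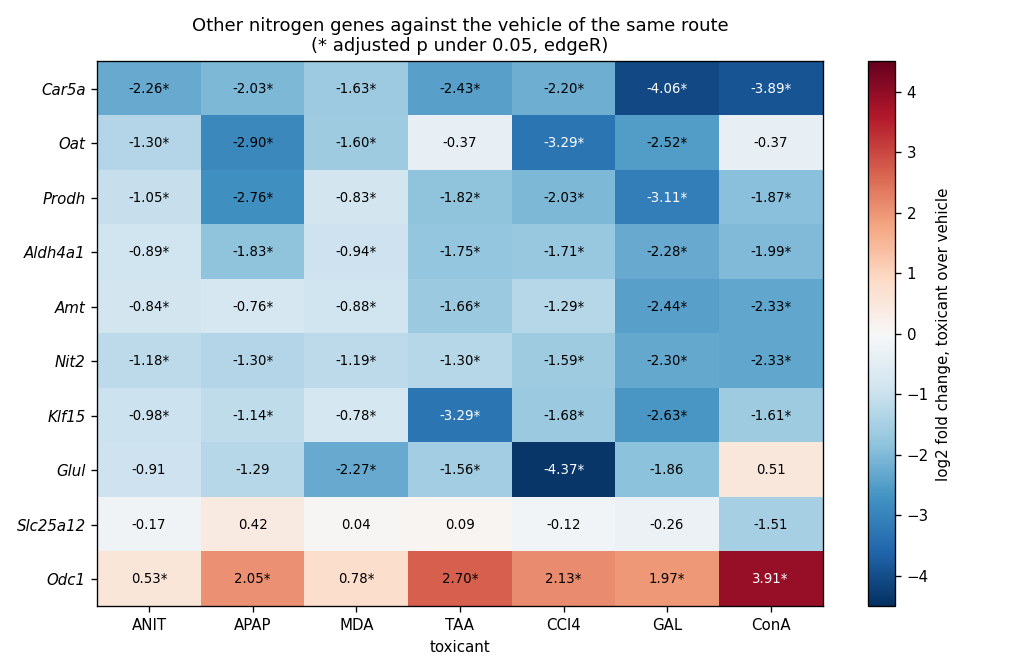
log2 fold change (colour and printed value) of 10 further genes (vertical) with 7 toxicants (horizontal) against the vehicle of the same route. They are genes of nitrogen handling and the regulator Klf15, which was named after its values were seen. An asterisk marks an edgeR adjusted p under 0.05. Car5a is lower and Odc1 higher in all 7 columns, and Glul is deepest with CCl4 at -4.37.

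Across the 57 livers, which share groups and libraries, the genes whose log2(CPM + 1) ran closest to each cycle enzyme were listed among 8024 genes as a description. For Cps1 they were Mtch2 (Pearson r = 0.924), Sdc2 (0.923) and Cyp2j5 (0.909). For Otc they were F13b (0.945), Il1rap (0.941) and Agmo (0.925), and for Ass1 Urah (0.954), Pxmp2 (0.944) and Aldh1l1 (0.935). Asl ran closest to Mat1a (0.945), Gm4737 (0.922) and Ahcy (0.917). Mat1a and Ahcy are enzymes of methionine metabolism. Within the cycle, Cps1 and Ass1 had r = 0.906, whereas Otc and Asl had r = 0.422.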

How the data were processed

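Bulk liver RNA of 57 mice was sequenced (TruSeq Stranded mRNA libraries, single-end reads, per the labels' protocols). The authors deposited 1 table of estimated counts for 54307 genes. Per the submitters' processing notes, Salmon 1.6.0, R 4.1.3 and the build GRCm39 were used. How transcripts were summed to genes and which annotation and strand setting were used is not given in the sources used here. The smallest value of 5285 single-transcript genes fell with transcript length (Spearman rho = -0.93, across genes), as length-scaled values would, so CPM was read as a level per length. Gene symbols were found for 51482 IDs and not for 2825.

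The estimated counts were rounded and tested with edgeR 4.0.16 in R 4.3.3 (filterByExpr, TMM, quasi-likelihood test, two-sided), each comparison on its own groups. The 4 gavage toxicants shared 1 fit, and CCl4 against GAL had its own. P-values were adjusted by Benjamini-Hochberg over all genes tested. The SE is the log2 fold change divided by the square root of F. The scripts were tested on simulated data. Alternatives used DESeq2 1.42.0, limma 3.58.1, library-total scaling, other filters, the replicate number and leaving out each toxicant, CIP or CIV library of a route comparison, with no single Ctrl library left out. P-values measure the spread between these mice. No 2 columns were identical.

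The 9 genes and all lists were chosen with earlier results of these data known, and some genes of the rule and the lists are not reported here. Named beside the 9 were the 4 other pathway genes called in most route comparisons (with ties), Glul, Slc25a12 and Oat, and the 3 genes with the highest Pearson r with each cycle enzyme, at a mean of at least 5 CPM. Nos2, Slc7a2, Klf15 and Cebpa were named after their values were seen.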

Additional observations from a re-analysis of the deposited data

Results flagged for a closer look

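In groups of 4 to 7 livers, 9 of the 63 pairs of gene and toxicant group held 1 liver whose gap to its nearest neighbour passed Dixon's 95% limit. That limit corresponds to about 1 in 20 for independent, normally spread values. These genes are correlated across livers (Cps1 and Ass1 r = 0.906) and several flagged pairs share a library, so the count was not set against chance. The library labelled APAP 1 held the most Asl of its 6 livers (945 CPM) and the least Slc25a15 (23.9 CPM). TAA 1 held the most Ass1 (2103 CPM), Asl (1036 CPM) and Nags (68.2 CPM) of its 5 livers. The library labelled MDA 1 held the most Asl (2944 CPM) and MDA 2 the most Nags (106 CPM) of 7. ConA 12 held the least Ass1 of 7 (573 CPM), and ANIT 3 the least Cps1 of 4 (587 CPM).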

How the results depend on the processing

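Of 63 changes against the route vehicle, 60 kept direction and call with DESeq2 and 3 gained a call, 62 kept them with limma-trend, 47 with library-total scaling and 59 with no filter. Leaving out 1 library, 345 of 414 values kept both, 58 lost a call, 7 gained one and 4 turned. With no filter, the lost calls were Glud1 with ANIT, CCl4 and GAL and Asl with ConA (adjusted p = 0.0743, 0.109, 0.0861 and 0.0814). Between toxicants, the 33 differences tallied were those called in the reported fit and those of Asl. Library-total scaling kept 24 of them, ended 8 calls and gave 1.

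Same-numbered mice did not meet the rule for pairing, a correlation of their deviations over 0.1 in every pair (-0.148 to 0.275 for gavage toxicants against Ctrl; 3 of the 4 TAA pairs, at 0.275, 0.114 and 0.153, passed it). The mouse numbered 1 held the most Asl of its group in Ctrl, APAP, MDA and TAA (1813, 945, 2944 and 1036 CPM). With the replicate number as a block, 2 genes were called for ANIT against Ctrl (6.84% of all genes called), 2 for ANIT against 17 vehicles (10.3%) and 3 for APAP against Ctrl (1.65%). Between gavage toxicants 15 calls stood in place of 22. The shares of all genes called fell there too, to 2.89% from 13.2% (ANIT and APAP) and to 5.84% from 21.6% (ANIT and TAA). They fell to 5.05% from 13.1% (APAP and MDA), to 13.1% from 24.3% (MDA and TAA) and to 0.471% from 5.98% (APAP and TAA). The calls lost for ANIT against Ctrl were Asl (0.80 ± 0.55, adjusted p = 0.396) and Glud1 (-0.27, adjusted p = 0.261). Glud1 was also lost with MDA (-0.34, adjusted p = 0.126) and TAA (-0.23, adjusted p = 0.246), while Ass1 with MDA (-0.80, adjusted p = 0.00434) and Nags with GAL (-2.0, adjusted p = 0.024) were gained. For APAP against Ctrl they were Otc (-1.60), Asl (-1.62), Nags (-0.60), Slc25a15 (-1.21) and Slc25a13 (-1.15), all larger in size than without the block (adjusted p 0.0657 to 0.155). No paired analysis was possible for CCl4 against CIP, ConA against CIV or CCl4 against GAL because they share fewer than 2 numbers, so the planned block fit of the last was not run. Among mice numbered 1 to 4 alone, 2 genes were called with ANIT (13.7% of all genes) and 2 with MDA (10.4%), and 4 with APAP (6.28%) and 4 with TAA (19.4%), with fewer samples. Among numbers above 4 alone, an alternative added after seeing the data, 2 were called for ConA (21.7%). Library-total scaling left 5 for CCl4 (36.8%) and 5 for GAL (40.9%), and no filter left 2 for ANIT against 17 vehicles; the cause was not tested.

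Leaving out 1 library gave 2 to 3 called genes for ANIT against Ctrl (17.5% to 27.4% of all genes) and 2 to 3 against 17 vehicles (17.5% to 26.9%; 2 without ANIT 3 or 4 in both), 2 to 5 for MDA (28.8% to 34.8%; 2 without MDA 8), 3 to 5 for MDA against 17 vehicles (29.3% to 34.4%; 3 without MDA 7, 8 or 12), 5 to 9 for CCl4 (18.0% to 36.2%; 5 without CIP 7), 4 to 9 for GAL (9.49% to 42.5%; 4 without CIP 7, 5 without GAL 8 or CIP 8), 2 to 9 for ConA (23.9% to 36.1%; 2 without CIV 8) and 5 to 8 for TAA against 17 vehicles (44.1% to 48.9%; 5 without TAA 3). Calls between gavage toxicants, 22 in the reported fit, were 19 to 24 leaving out 1 ANIT or TAA library. No single Ctrl library was left out, and against 17 vehicles only toxicant libraries were.

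Directions turned for Slc25a13 with ANIT (-0.12 by library total, 0.0 with the block and among numbers 1 to 4), and Glud1 with CCl4 (0.07 by library total). Asl with MDA turned to -0.14 with limma-trend, -0.33 with the block, -0.12 with the number range, -0.27 among numbers above 4 and -0.46 to 0.22 leaving out 1 library, the former without MDA 1. Slc25a15 with MDA turned to 0.01 and Slc25a13 with MDA to 0.03 among numbers 1 to 4, and leaving out 1 library they ran from -0.12 to 0.01 and from -0.08 to 0.05. Of these, Glud1 with CCl4 was the one called in the reported fit. With 2 saline livers in each of CIP and CIV, 1 control liver can decide a call.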
